A study of Mus musculus with 8 samples.

Results

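Conventional dendritic cells (cDC) sorted from the spleens of leukemia-bearing mice were compared after 2 days of treatment with panobinostat or with vehicle. The comparison took 4 of the 8 RNA-seq libraries of the study by their labels: 2 cDC libraries from mice given panobinostat, marked LBH in the count table, and 2 cDC libraries from mice given vehicle, marked D5W. The other 4 libraries, from plasmacytoid dendritic cells (pDC) of mice given the same treatments, were used where an effect was compared between the cell types, in the check of the replicate numbers and in an alternative fit of all 8 libraries. All mice were C57BL/6, all carried leukemia and each library was a pool of 3 to 6 mice. The labels name neither the leukemia, nor a dose, nor a healthy or untreated group, so every value is from a leukemia-bearing host. The extraction text of the labels speaks of sorted leukemia cells, whereas the titles, sources and cell type labels name dendritic cells. Of 27179 gene IDs in the table, 13556 had enough counts in these 4 libraries to be tested.

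Conventional dendritic cells take up antigen, move it to lymphoid tissue and present it to T cells on MHC molecules. The spleen holds a cDC1 subset, which depends on Irf8 and Batf3 and presents antigen from dying cells to CD8 T cells, and a cDC2 subset, which presents mainly to CD4 T cells. On maturation both switch to a program that includes Ccr7, Fscn1 and Cd83. Panobinostat (LBH589) is a small molecule of the hydroxamate class that inhibits histone deacetylases (HDAC), the enzymes that remove acetyl groups from histones and other proteins, and it is used as a drug in blood cancers.

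The libraries carried the defining genes of cDC. Levels are given as CPM, read counts scaled to the size of the library, which are comparable between libraries for 1 gene but, without gene length, not between genes. Zbtb46, the transcription factor that marks the cDC lineage, stood at 143 and 158 CPM in the vehicle libraries and 206 and 188 CPM in the panobinostat libraries. Ccr7, the chemokine receptor that guides mature dendritic cells, was at 924 and 941 against 488 and 857 CPM, and Cd86, a costimulatory ligand, at 215 and 313 against 260.3 and 373 CPM. Siglech, a marker of pDC, was at 3.41 and 1.61 against 1.89 and 1.87 CPM. Of 14 neutrophil markers 1, Ly6g, had 0 counts in all 4 libraries, and the summed list was at 29.6 and 34.62 against 47.18 and 82.93 CPM. Within that sum Mmp9 was at 6.82 and 16.2 against 33.2 and 71.6 CPM and Csf3r at 15.1 and 9.42 against 10.96 and 6.096 CPM. Of the 5 neutrophil markers tested, Mmp9 was the 1 with a fold change above 0, and 4 were below.

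Total counts were 19411880 to 20657429 per library, and 16890 to 18062 genes had a count. Libraries that shared a replicate number were about as alike as libraries that shared a treatment: the correlation of log2 CPM was 0.973 between the vehicle and panobinostat libraries numbered 1 and 0.969 between those numbered 2, against 0.966 between the vehicle and 0.969 between the panobinostat libraries. The replicate number was also fitted as a block, which compares panobinostat with vehicle within each number. Markers of other spleen cells moved with the number or the treatment. Summed CPM of 16 B cell markers was 1264 and 2444 in the vehicle and 744.7 and 1075 in the panobinostat libraries. Ighm alone made up 969 and 1657 against 489 and 603 CPM of that sum. Of the 16, 5 were below and 0 above in both panobinostat libraries. The sum of 16 natural killer (NK) cell markers was 200.9 and 272.2 against 268.5 and 677.6 CPM. Klrk1 was at 95.5 and 108 against 142 and 175 CPM and Klrd1 at 54.3 and 55.2 against 67.8 and 79.1 CPM. Together they made up most of the NK sum in the libraries numbered 1. Ncr1, also on that list, was at 0.292 and 6.58 against 1.49 and 43.6 CPM. Erythroid markers were higher in number 1 of both treatments (1794 and 2239 CPM, against 873.5 and 470.8 in number 2). The 23 cDC1 genes were summed at 7294 and 10660 CPM under vehicle and 11280 and 14510 CPM under panobinostat. In such sorted bulk samples a change in the share of a cell type and a change in RNA per cell cannot be told apart.

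**Figure D1:**
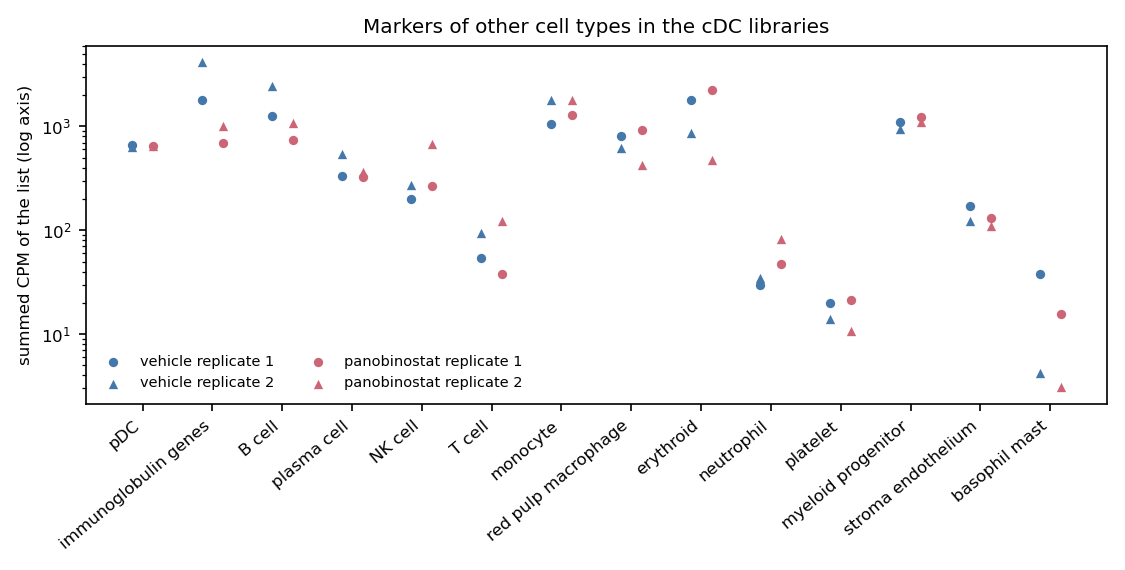
Summed CPM (log axis) of the marker lists of other cell types in the 4 cDC libraries, with vehicle in blue, panobinostat in red, circles for replicate 1 and triangles for replicate 2. Immunoglobulin genes were at 1815 and 4193 CPM under vehicle and 686.8 and 1002 CPM under panobinostat, while the pDC markers summed to between 634.3 and 656.2 CPM in all 4 libraries, with 5 of 14 tested members above and 3 below in both panobinostat libraries. Cbfa2t3 alone made up 361 and 294 against 373 and 331 CPM of that sum. Ly6d (17.7 and 68.9 against 4.71 and 19.4 CPM) was called lower with the replicate block, and Spib (70.4 and 63.8 against 41.1 and 32.2 CPM) by DESeq2.

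Across all genes the response to panobinostat was small against the spread between 2 libraries per group. With edgeR's quasi-likelihood test on the 4 libraries, 0 of 13556 genes (0%) passed an adjusted p of 0.05, and the smallest adjusted p was 0.245, for Crispld2. At an unadjusted p under 0.05 there were 1324 genes (9.77%), 637 higher (4.7%) and 687 lower (5.07%) with panobinostat; scaled by library size only, the split was 356 higher and 1131 lower. With the replicate block the same test called 106 genes (0.782%), 57 higher (0.42%) and 49 lower (0.361%). DESeq2 without a block called 266 of 12767 genes with an adjusted p (2.08%), 133 in each direction (1.04%), and limma-voom called 0. Of the 106 genes, 70 were also called by DESeq2 and 89 had both panobinostat libraries on the same side of both vehicle libraries. The libraries are labelled biological replicates, so p-values without the block weigh a change against the spread between these pools. With the block they weigh it against the disagreement of the 2 within-number ratios. That fit has 1 residual degree of freedom, and 3.5 more are borrowed from other genes. For Cd8a edgeR's unadjusted p was 0.173 without the block and 0.000209 with it. An exact permutation test of 2 against 2 libraries cannot go below p = 0.333. A gene is said to have risen or fallen if it was called in the fit with the replicate block, and a fold change is the log2 ratio of panobinostat to vehicle in the fit of 4 libraries, ± its standard error, with n = 2 libraries per group.

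**Figure D2:**
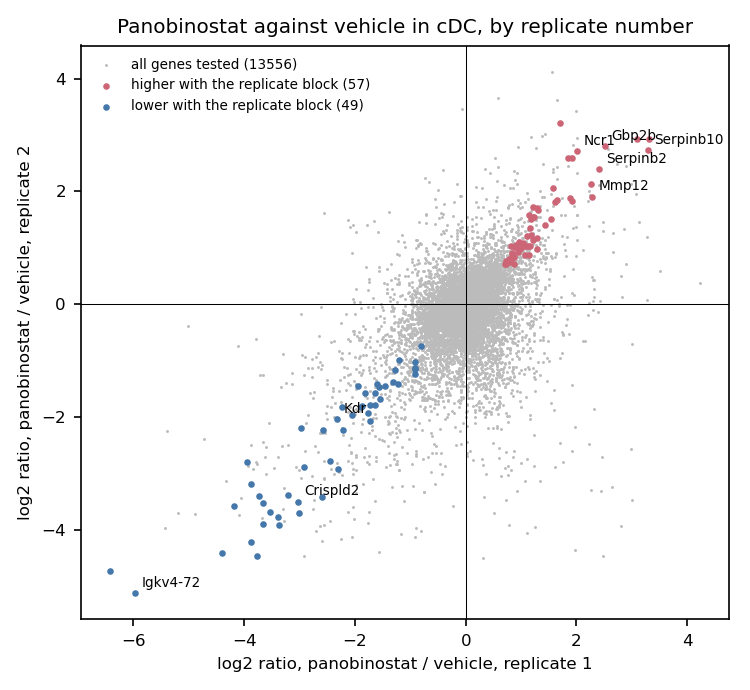
Log2 ratio of panobinostat to vehicle for each gene within replicate 1 (horizontal) and within replicate 2 (vertical), with all 13556 genes in grey and those called with the replicate block in red (57 higher) and blue (49 lower). Serpinb10, Gbp2b and NK cell genes such as Gzma and Xcl1 lie far to the upper right, and Crispld2 and immunoglobulin genes far to the lower left.

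Gene lists are described by how many members had both panobinostat libraries above, or both below, the 2 vehicle libraries. Over all genes tested this held for 2794 genes upward (20.6%) and 2800 downward (20.7%), the median fold change was -0.01 and 47.9% of fold changes were above 0.

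Several protease inhibitors of the serpin family and the matrix metalloproteinases Mmp12 and Mmp9 rose, while the metalloproteinase Mmp23 fell. Serpinb10 was at 7.25 and 11.9 CPM in the vehicle libraries and at 71.7 and 79.4 CPM in the panobinostat libraries, a fold change of 2.98 ± 0.27 (adjusted p = 0.35, and 0.0262 with the replicate block). Serpinb2, an inhibitor of urokinase-type plasminogen activator, was at 5.75 and 16.4 against 31.1 and 86.9 CPM, and Serpinb8 at 18.3 and 26.2 against 44.6 and 59.5 CPM. In all 3 genes the groups were separate, and library 2 of each treatment was above library 1. Serpinb1a, an inhibitor of neutrophil elastase and related proteases, rose from 23.4 and 38.5 to 73.5 and 139 CPM, and Serpina3f from 9.06 and 13.7 to 20.5 and 32.2 CPM. Of 15 serpins tested, 8 (53.3%) had both panobinostat libraries above both vehicle libraries and 0 had them below. The median fold change of the list was 0.38, ranging from 0.27 to 0.98 with any 1 library left out, and 4 rose with the block: Serpinb2, Serpinb8, Serpina3f and Serpinb1a; Serpinb10 was not on the list.

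Position linked several of them. Serpinb7, Serpinb2, Serpinb10 and Serpinb8 lie next to each other on chromosome 1 (107422689 to 107608978, GRCm38), and all 4 were higher in both panobinostat libraries, with a median fold change of 1.86. Serpinb7 itself was at 7.304 and 3.41 against 14.1 and 12.5 CPM and was not called (0.118 with the block). The 5 tested Serpina3 genes on chromosome 12 (104214544 to 104414334) were likewise all higher in both, with a median of 0.78, although 1 of them, Serpina3f, was called with the block. These neighbourhoods were picked after the values were seen, and Serpina3 genes are near copies whose reads the counting could split.

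Matrix metalloproteinases cut extracellular matrix and chemokines. Mmp12, the macrophage elastase, was at 36.2 and 53.6 CPM with vehicle and 176 and 201 CPM with panobinostat (2.07 ± 0.22, adjusted p = 0.354, and 0.0262 with the block). Mmp9, a gelatinase that neutrophils and dendritic cells make, was at 6.82 and 16.2 against 33.2 and 71.6 CPM. Both genes were well separated between the groups. Mmp9 is also on the neutrophil list, in which 5 markers were tested, 1 (Mmp9 itself) with a fold change above 0 and 4 below; the part of such cells in its level was not tested. In the list of 21 proteases and inhibitors that holds both, Adam19 was at 137 and 167 against 219.7 and 315 CPM and was called by DESeq2 (adjusted p = 0.0358) but not with the block (0.0553). Mmp14, a membrane-bound metalloproteinase, stood at 4.19 and 3.32 against 1.54 and 0.604 CPM and was not called. The list had 9 members higher and 5 lower in both panobinostat libraries and a median of 0.11. Mmp23, a matrix metalloproteinase that is not on this list, fell from 15.3 and 13.6 to 3.62 and 3.41 CPM, with separate groups. Its fold change was -2.04 ± 0.20 (adjusted p = 0.35, and 0.0435 with the block), and DESeq2 called it too (adjusted p = 5.16e-07). Ece1, an endothelin-converting enzyme, rose from 362 and 389 to 599 and 634 CPM.

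**Figure D3:**
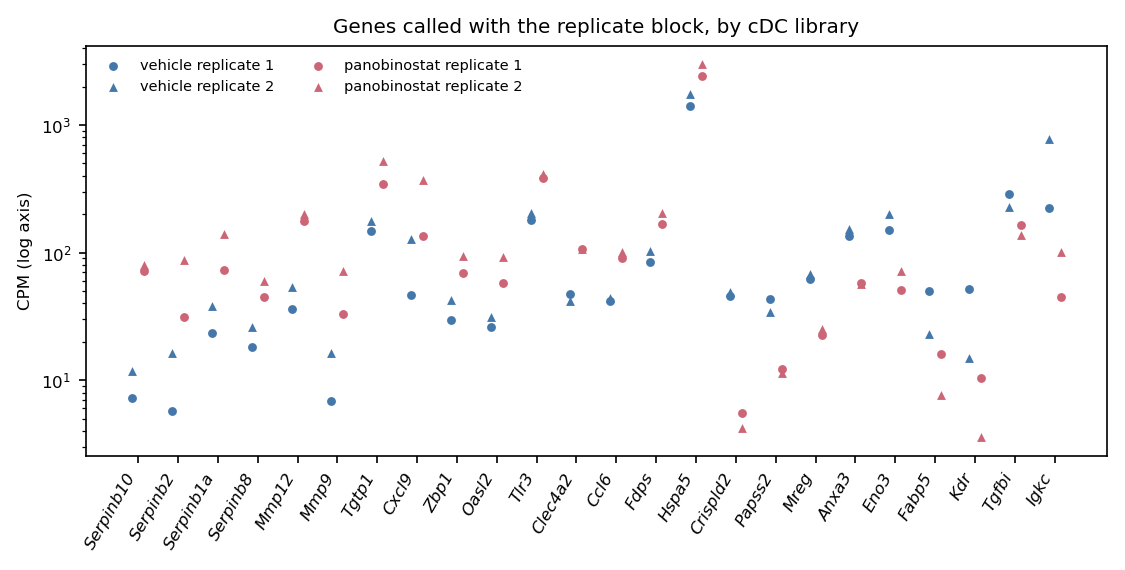
CPM (log axis) in each of the 4 cDC libraries for 24 genes called with the replicate block, with vehicle in blue, panobinostat in red, circles for replicate 1 and triangles for replicate 2. Serpinb10 and Mmp12 lie higher in both panobinostat libraries, and Crispld2 drops from 45.6 and 48.97 to 5.51 and 4.23 CPM.

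Genes that interferons induce were mostly higher. Type I interferons signal through Ifnar1 and Ifnar2 to a complex with Irf9, which binds a short promoter element, the interferon-stimulated response element (ISRE). Of 67 tested genes of this response, 54 (80.6%) had both panobinostat libraries above both vehicle libraries, against 20.6% of all genes, and 1, Phf11b, had them below. The median fold change was 0.48, at 0.44 within replicate 1 and 0.55 within replicate 2, and it stayed between 0.41 and 0.62 when any 1 library was left out. In edgeR's fit without the block 0 members passed the adjusted threshold, and 33, all higher, had an unadjusted p under 0.05. With the block 4 rose (Ifi207, Ifi27l2a, Zbp1 and Oasl2), and DESeq2 called 16, all higher.

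Zbp1, a sensor of Z-form nucleic acid, was at 29.6 and 42.6 CPM in the vehicle and 68.6 and 94.1 CPM in the panobinostat libraries (1.17 ± 0.25, adjusted p = 0.405, and 0.0346 with the block). Oasl2, an antiviral protein of the 2'-5' oligoadenylate synthetase family, was at 26.1 and 31.02 against 57.6 and 92.9 CPM (1.40 ± 0.27, with the block 0.0487). Ifi207, of the DNA-binding Ifi200 family, was at 47.7 and 74.1 against 105 and 136 CPM. In each gene both treated libraries exceeded both controls. Both regulators Irf7 and Irf9 were higher as well, but passed only in DESeq2: Irf7, the factor that amplifies interferon production, was at 154 and 187 against 328 and 302 CPM (adjusted p = 0.000108) and Irf9 at 109.7 and 122 against 161 and 177 CPM (0.0468). Their adjusted p with the block was 0.0631 and 0.0653. Isg15, a ubiquitin-like modifier, was at 29.7 and 33.96 against 47.7 and 61.3 CPM and Oas3 at 13.8 and 13.6 against 33.1 and 26.5 CPM. The classical targets did not all follow: Ifit1 was at 29.5 and 34.95 against 34.8 and 51.3 CPM, and the RNA sensor gene Ddx58 at 40.6 and 32.5 against 33.7 and 43.6 CPM, each with overlapping groups. The receptor genes parted in direction by small amounts, and neither was called, with Ifnar1 at 120.0 and 109.8 against 128 and 151 CPM and Ifnar2 at 103 and 98.1 against 94.9 and 97.4 CPM.

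The promoter sequences show the element these genes are known for. RefSeq promoter windows (GRCm38.p6, 250 bases before to 50 after the start) were available for 50 of the 67 genes, and the letters GAAA, any 2 bases and GAAA, searched on both strands, occurred in 24 (48%), against 3.98% of 10264 tested genes with a window and 3.44% of 32851 start sites in all. Stretches of 100 bases are printed on the strand of the gene, 5' to 3', for 3 genes of the response that were higher in both panobinostat libraries, with the matches in capitals. In Isg15 the 3 matches run into each other.
Isg15 (chr4:156200836-156200935, minus strand): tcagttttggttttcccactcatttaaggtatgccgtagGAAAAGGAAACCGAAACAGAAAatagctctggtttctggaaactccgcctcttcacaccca
Oas3 (chr5:120777680-120777779, minus strand): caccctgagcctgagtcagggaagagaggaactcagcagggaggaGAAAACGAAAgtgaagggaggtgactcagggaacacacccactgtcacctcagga
Ifi207 (chr1:173741810-173741909, minus strand): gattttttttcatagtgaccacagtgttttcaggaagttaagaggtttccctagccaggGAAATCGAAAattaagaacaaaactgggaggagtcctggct
A match is a description of the letters only, and these genes were put on the list for their known response.

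Genes of the interferon gamma response were higher as well. This type II interferon, made by NK and T cells, induces guanylate-binding proteins and immunity-related GTPases, which attack intracellular pathogens. Of 25 tested genes, 14 (56%) were above in both panobinostat libraries and 0 below, and the median was 0.69, ranging from 0.32 to 0.85 with any 1 library left out. Gbp2b was at 2.63 and 3.08 CPM under vehicle and 15.6 and 22.1 CPM under panobinostat (2.72 ± 0.26, adjusted p = 0.35, and 0.0335 with the block). The near copies Tgtp1 and Tgtp2 were at 147 and 178 against 347 and 519 and at 161 and 187 against 361 and 535 CPM, and reads could be split between them. Igtp rose from 46.8 and 56.8 to 84.1 and 105 CPM. All 8 tested immunity-related GTPase genes in 2 clusters of chromosome 11, between 48865245 and 58222783, were higher in both treated libraries, and 5 of them rose with the block; this grouping was made after the values were seen. Cxcl9, which attracts T cells through Cxcr3, was at 46.6 and 129 against 135 and 369 CPM and rose with the block (adjusted p = 0.0262) but not without it (0.562), since vehicle number 2 was close to panobinostat number 1. Other members did not separate: Cd274, which encodes PD-L1, was at 102 and 77.4 against 71.99 and 96.1 CPM, Irf1 at 155 and 209 against 189.7 and 309.7 CPM and Ido1 at 1.51 and 2.18 against 1.34 and 1.702 CPM. The transcript of interferon gamma itself, Ifng, was at 0.0974 and 1.137 CPM under vehicle and 0.695 and 9.39 CPM under panobinostat, and so followed panobinostat library 2, which also held the highest NK cell markers; the part of those cells in the list was not tested.

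**Figure D4:**
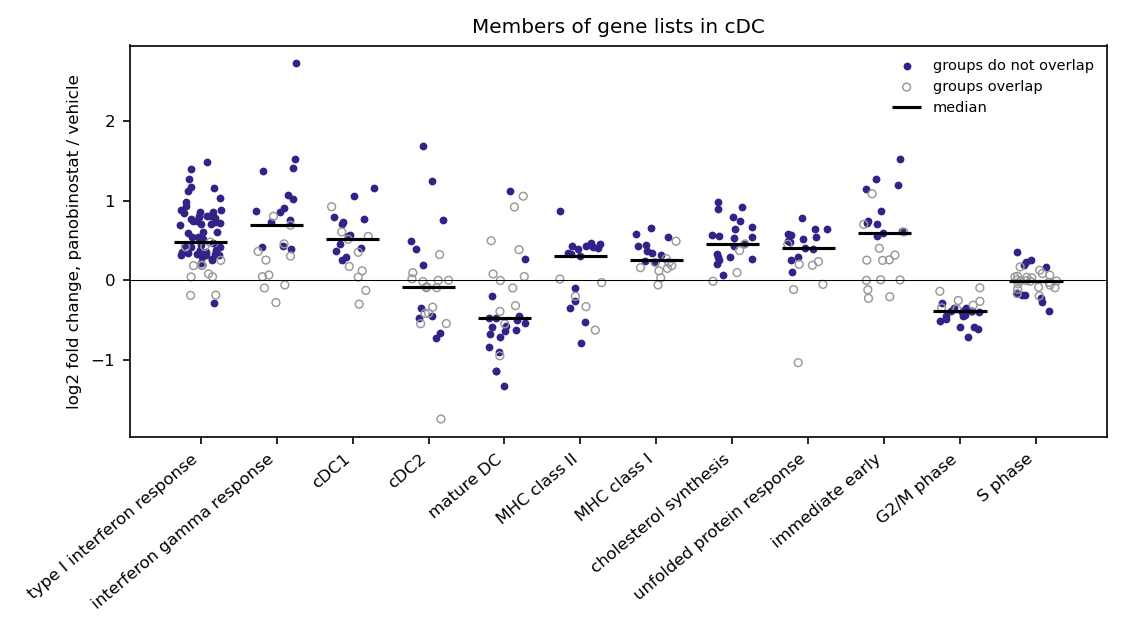
Log2 fold change (panobinostat to vehicle) of each tested member of 12 gene lists in cDC, with filled points where the groups did not overlap, open points where they did and a bar at the median. The interferon, cholesterol and unfolded protein lists lie mostly above 0, with medians of 0.48, 0.69, 0.45 and 0.40, and all 26 G2/M genes lie below 0.

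Among genes of the cDC subsets, those of cDC1 were higher and those of cDC2 were mixed. Of 23 cDC1 genes, 13 (56.5%) were above in both panobinostat libraries, 0 were below, and the median was 0.51. Tlr3, the endosomal receptor for double-stranded RNA, was at 181 and 203 CPM with vehicle and 387 and 415 CPM with panobinostat (1.06 ± 0.12, adjusted p = 0.384, and 0.0346 with the block). Cd8a was at 169 and 425 against 354 and 773 CPM, and Gpr141b at 144 and 211 against 249 and 369 CPM. Cd8a rose within each number, but its groups overlapped because the libraries numbered 2 held more of it than those numbered 1. The markers Xcr1 and Clec9a showed the same order, with 269 and 417 against 398 and 607 CPM and 112 and 192 against 178 and 286 CPM, and neither was called with the block (0.0621 and 0.0578). Irf8, the factor on which cDC1 depend, was at 957 and 1528 against 1530.0 and 1664 CPM and Batf3 at 96.3 and 111 against 124 and 124 CPM. Left-out libraries moved the list's median between 0.26 and 0.77. The share of cDC1 among the sorted cells was not measured.

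The 26 cDC2 genes had 6 above and 5 below in both panobinostat libraries and a median of -0.09 (-0.22 to 0.14 with any 1 library left out). Clec4a2, a lectin-like receptor with an inhibitory motif, was at 47.5 and 41.9 against 106 and 107 CPM and rose (1.25 ± 0.12, 0.0346 with the block). Ccr2, the chemokine receptor of monocytes and of part of the cDC2, was at 57.5 and 47.98 against 147 and 193 CPM (1.69 ± 0.19). DESeq2 called it (adjusted p = 5.14e-11), while with the block it narrowly missed the threshold (adjusted p = 0.05002). Of 13 tested monocyte markers, Ccr2 among them, 5 (38.5%) were above and 1 below in both panobinostat libraries, with a median of 0.61 (0.21 to 0.84 with any 1 library left out), while their sum was at 1054 and 1813 against 1286 and 1780 CPM. The part of monocytes in the Ccr2 level was not tested. Other cDC2 genes were level or lower: Sirpa was at 452 and 289 against 475 and 276 CPM, Irf4 at 30.5 and 30.2 against 23.8 and 20.7 CPM and Esam at 39.00 and 51.9 against 22.4 and 35.1 CPM. None of these 3 was called.

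Genes of dendritic cell maturation leaned the other way. Of 31 tested, 17 (54.8%, against 20.7% of all genes) were below in both panobinostat libraries and 2 above, and the median was -0.48, between -0.57 and -0.32 with any 1 library left out. Anxa3, a calcium-dependent membrane-binding protein, fell from 135 and 153 to 57.6 and 57.1 CPM (-1.33 ± 0.12, adjusted p = 0.35, and 0.0346 with the block). Fscn1, the actin-bundling protein of mature dendritic cells, was at 1308 and 985 against 755 and 782 CPM, Cd83 at 1244 and 1387 against 785 and 1081 CPM and Relb, an NF-kB subunit, at 529 and 456 against 365 and 342 CPM. Both treated libraries were below both controls in all 4 genes. Tmem123 (1761 and 2030.5 against 941 and 786 CPM), Cacnb3 and Zmynd15 were called lower by DESeq2 (adjusted p = 3.19e-08, 0.00608 and 0.000952) but not with the block (0.0565, 0.055 and 0.0531). Ccr7 was lower in panobinostat number 1 than in number 2, with a fold change of -0.47 ± 0.29 that was not called. The 2 exceptions with separate, higher groups were Pdcd1lg2, which encodes PD-L2 (57.1 and 33.7 against 109 and 89.02 CPM), and Ebi3 (38.2 and 31.02 against 41.8 and 41.8 CPM). Pdcd1lg2 was the 1 gene of the list that DESeq2 called higher, and it was not called with the block. Apol7c, an apolipoprotein L of dendritic cells, rose within each number, from 363 and 1066 to 791 and 2177 CPM, with overlapping groups.

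Most genes of the MHC class II pathway were slightly higher. Of 21 tested, 11 (52.4%) were above and 5 below in both panobinostat libraries, with a median of 0.30 (0.19 to 0.34 with any 1 library left out), and edgeR called 0 with or without the block, while 9 higher and 2 lower had an unadjusted p under 0.05. Ciita, the master regulator of the pathway, was at 933 and 863 against 1302 and 1116 CPM. The chains H2-Ab1, at 16539 and 20026 against 24312 and 25780.0 CPM, and Cd74, the invariant chain, at 32800.0 and 35493 against 44872 and 46809 CPM, had separate groups and fold changes of 0.45 ± 0.14 and 0.42 ± 0.11. H2-Ob, a brake on peptide loading, was at 215 and 249 against 434 and 417 CPM and H2-DMa, the loading chaperone, at 561 and 591 against 780.3 and 814 CPM. DESeq2 called both (adjusted p = 6.52e-06 and 0.0243), and B cells express these class II genes too. Summed B cell markers, mostly Ighm, were lower with panobinostat, and the part of B cells in the class II levels was not tested. The thiol reductase gene Ifi30 (324 and 249.5 against 189 and 211 CPM) and H2-Eb2 (162 and 159 against 138 and 129 CPM) were lower in both.

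For MHC class I the list of 20 had 10 genes (50%) above in both panobinostat libraries and 0 below, with a median of 0.26 that ranged from 0.11 to 0.42 with any 1 library left out. The heavy chain gene H2-K1 was at 1399 and 1782 against 1491 and 2060.1 CPM and B2m at 2714 and 3413 against 2696 and 4103 CPM, with overlapping groups. The peptide transporter gene Tap2 was at 209 and 233 against 289 and 357 CPM. Pdia3 and Calr, chaperones of the loading complex, were at 998 and 1205 against 1561 and 1904 CPM and at 344 and 352 against 479 and 564 CPM, and DESeq2 called both (adjusted p = 0.0312 and 0.0181). Of 22 costimulatory and checkpoint genes, 6 were above and 1 below in both, with a median of 0.10 (-0.01 to 0.32 with any 1 library left out). Cd80 (23.96 and 25.4 against 22.4 and 26.03 CPM), Cd40 (101 and 124 against 90.00 and 118 CPM) and Cd86 had overlapping groups. Icosl, the ligand of the T cell receptor ICOS, was the gene below in both, at 485 and 458 against 344 and 313 CPM, and passed in DESeq2 (adjusted p = 0.0178) but not with the block (0.0654). Pdcd1lg2, also on this list, was called higher by DESeq2 and not with the block.

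Receptors and mediators of innate immunity changed gene by gene. Of 25 Toll-like receptor pathway genes, 8 were above and 5 below in both panobinostat libraries, and Tlr3 was the only one that rose with the block or passed in DESeq2. Tlr11, a receptor for protozoan profilin expressed by cDC1, was at 125 and 162 against 189.6 and 280.4 CPM, while Tlr7 and Tlr9 were at 19.9 and 36.6 against 20.5 and 29.1 and 25.3 and 15.4 against 19.2 and 15.6 CPM. Of 20 cytokine genes 0 were called by edgeR with or without the block or by DESeq2, and 1 higher and 3 lower had an unadjusted edgeR p under 0.05. Il12b, a subunit of interleukin 12, was at 152 and 201 against 131 and 234 CPM and Il1b at 103 and 61.00 against 93.2 and 99.7 CPM, each with overlapping groups. Il18 was at 17.5 and 18.2 against 29.3 and 28.7 CPM, and Il6 at 9.25 and 2.94 against 1.64 and 1.81 CPM. Vehicle library 1 stood high for Il6, for Il10 (7.64 and 0.7104 against 0.347 and 0.384 CPM) and for Il1rn, the interleukin 1 receptor antagonist (62.5 and 15.2 against 13.1 and 8.29 CPM).

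Of 16 chemokine genes 3 were above in both and 0 below. Ccl6 was at 41.7 and 43.7 against 90.00 and 102 CPM (1.17 ± 0.12, 0.0346 with the block) and Cxcl9 was the other one that rose. Ccl5 was at 1098 and 645 against 681 and 650.0 CPM and Ccl22 at 50.9 and 115 against 105 and 129 CPM, with overlapping groups. Among 29 C-type lectins, 10 were above and 5 below in both. Besides Clec4a2, DESeq2 called Clec7a, the beta-glucan receptor Dectin-1 (34.6 and 40.3 against 63.01 and 65.6 CPM), Clec4a4, Clec4b2, Klri1, Klri2 and Klrk1 as higher, and Cd207, langerin, as lower (13.2 and 25.5 against 3.82 and 1.65 CPM, adjusted p = 4.98e-05, and 0.111 with the block). Klri1 (117 and 124 against 176 and 199.8 CPM) and Klrk1 (95.5 and 108 against 142 and 175 CPM) did not follow the NK markers Ncr1 and Gzma in being high mainly in panobinostat library 2.

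The targets of the drug and their partners had small median changes, and 0 of them were called with the block or by DESeq2. Of the 4 class I HDAC genes, Hdac1 was at 241 and 236 against 239.7 and 235 CPM, Hdac3 at 86.1 and 83.1 against 87.8 and 78.3 CPM and Hdac8 at 12.5 and 10.2 against 11.01 and 10.8 CPM. Hdac2 was at 9.06 and 12.1 against 7.24 and 6.81 CPM, below in both panobinostat libraries, and was not called. The median of the 4 was -0.04. The 7 class II and IV genes had a median of -0.16 (-0.32 to 0.11 with any 1 library left out), with Hdac6, the tubulin deacetylase, at 36.9 and 30.2 against 30.2 and 25.04 CPM. The 28 corepressor genes of HDAC complexes leaned lower, with 13 (46.4%, against 20.7% of all genes) below and 3 above in both panobinostat libraries. Their median was -0.12, and 0 were called by edgeR with or without the block or by DESeq2. An unadjusted edgeR p under 0.05 was seen for 2, both lower. Ncor1, the nuclear receptor corepressor, was at 78.3 and 79.99 against 58.2 and 67.2 CPM. Genes known from cultured cells to respond to HDAC inhibitors were not shifted as a group: of 27 tested, 6 were above and 6 below in both, with a median of 0.07. Cdkn1a, the cell-cycle inhibitor p21, was at 32.1 and 58.4 against 36.9 and 52.1 CPM, and H1f0, a linker histone, at 63.5 and 93.6 against 80.8 and 24.7 CPM. Txnip was at 81.7 and 60.9 against 115 and 143 CPM and Ndrg1 at 18.1 and 17.2 against 28.1 and 30.8 CPM, and DESeq2 called both higher (adjusted p = 0.0178 and 0.045), while Cdkn2b was called lower (36.1 and 24.5 against 14.7 and 15.2 CPM, adjusted p = 0.0298).

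Genes of the G2 and M phases of the cell cycle were lower. All 26 fold changes were below 0, 19 genes (73.1%) had both panobinostat libraries below both vehicle libraries, and the median was -0.39, between -0.54 and -0.31 with any 1 library left out. edgeR called 0 with or without the block, although 12 had an unadjusted p under 0.05, and DESeq2 called 3. Ccnb1, the cyclin of mitotic entry, was at 131 and 118 against 86.4 and 79.03 CPM (-0.59 ± 0.12, DESeq2 adjusted p = 0.0243), Ccnb2 at 126 and 105 against 75.1 and 76.1 CPM and Hmmr at 56.3 and 59.4 against 31.4 and 39.2 CPM. Cdc20, which activates the anaphase-promoting complex, was at 77.4 and 62.5 against 45.8 and 47.6 CPM and was not called. The proliferation marker Mki67 overlapped between the groups (124 and 174 against 129 and 143 CPM). The 32 S phase genes had no such lean, with 5 above and 6 below in both and a median of -0.01. The 17 BCL2 family genes had a median of 0.02, with Mcl1 at 62.7 and 108 against 82.4 and 106 CPM and Bax at 128 and 142 against 127 and 120.3 CPM.

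The cell-cycle homology region, written TTTGAA, is a promoter element through which repressor complexes act on such genes. Of 23 G2/M genes with a RefSeq window, 16 (69.6%) held these letters on either strand, against 15.2% of tested genes and 17.9% of all start sites. The list was made of genes known for these phases, and a match describes the letters only. The stretches of Ccnb2 and Cdc20, a called and an uncalled gene of DESeq2, are printed with the match in capitals.
Ccnb2 (chr9:70421669-70421768, minus strand): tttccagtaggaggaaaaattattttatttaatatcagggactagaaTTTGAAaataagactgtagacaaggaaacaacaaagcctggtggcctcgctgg
Cdc20 (chr4:118437344-118437443, minus strand): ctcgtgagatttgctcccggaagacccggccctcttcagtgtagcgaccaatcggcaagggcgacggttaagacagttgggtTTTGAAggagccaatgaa

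Genes of protein folding in the endoplasmic reticulum were higher. The unfolded protein response raises chaperones when unfolded protein accumulates there. Of 21 genes, 14 (66.7%) were above in both panobinostat libraries and 0 below, with a median of 0.40 and a range of 0.32 to 0.44 with any 1 library left out. Hspa5, the chaperone BiP, was at 1403 and 1749 CPM with vehicle and 2401 and 2998 CPM with panobinostat (0.78 ± 0.19, adjusted p = 0.428, and 0.0487 with the block). DESeq2 called it together with Pdia6 (375 and 441 against 609 and 669.7 CPM), Sdf2l1 (165 and 185 against 259 and 261 CPM) and Hyou1 (43.2 and 47.98 against 77.1 and 65.3 CPM). Transcription factors of the response were not called: Xbp1 was at 233 and 228 against 277 and 289 CPM and Ddit3, which encodes CHOP, at 9.203 and 9.85 against 10.3 and 10.2 CPM, both above in both panobinostat libraries, and Atf4 was at 34.4 and 39.9 against 35.6 and 36.2 CPM with overlapping groups. Asns, an amino acid response gene, was lower in number 2 of each treatment (64.9 and 17.1 against 36.1 and 3.899 CPM).

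The endoplasmic reticulum stress element, CCAAT, any 9 bases and CCACG, was found on either strand in 6 of 18 genes of this list with a window (33.3%), against 0.185% of tested genes. These genes were listed for their known response, and a match describes the letters only. The element is shown in capitals for Hspa5 and Pdia6, both higher in both panobinostat libraries.
Hspa5 (chr2:34771984-34772083, plus strand): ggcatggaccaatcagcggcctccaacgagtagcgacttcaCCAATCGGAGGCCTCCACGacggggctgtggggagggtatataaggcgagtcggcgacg
Pdia6 (chr12:17266450-17266549, plus strand): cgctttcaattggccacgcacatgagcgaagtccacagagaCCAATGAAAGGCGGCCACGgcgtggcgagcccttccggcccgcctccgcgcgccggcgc

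Cholesterol synthesis genes were mostly higher. Of 24 tested, 20 (83.3%) were above in both panobinostat libraries and 0 below, and the median was 0.45, ranging from 0.28 to 0.68 with any 1 library left out. Fdps, the farnesyl diphosphate synthase, was at 84.1 and 103 CPM with vehicle and 166 and 203 CPM with panobinostat (0.98 ± 0.17, adjusted p = 0.39, and 0.0346 with the block). Sqle and Lss, which form the sterol ring, were at 54.7 and 64.6 against 87.7 and 119 CPM and 16.8 and 15.2 against 26.1 and 33.3 CPM, and passed in DESeq2 (adjusted p = 0.0375 and 0.0316). The sterol regulatory element TCACNCCAC was found in 1 of 17 windows of the list (5.88%, against 1.32% of tested genes), that of Hmgcs1, whose level was 99.4 and 119 against 132 and 185 CPM. The share of the list thus rests on 1 gene, and a match describes the letters only.
Hmgcs1 (chr13:119690168-119690267, plus strand): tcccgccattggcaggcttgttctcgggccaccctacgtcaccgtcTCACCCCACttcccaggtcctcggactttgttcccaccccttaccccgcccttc

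Immediate early genes, which respond within minutes to stimulation of cells, were higher but variable. Of 25, 11 (44%) were above in both and 0 below, with a median of 0.59 and a range from 0.29 to 0.84 with any 1 library left out. Egr1 was at 272 and 472 against 1093 and 1044 CPM (1.52 ± 0.29), and DESeq2 called it with Fosb (33.3 and 59.96 against 93.8 and 112 CPM) and Btg2 (526 and 763 against 1182 and 1167 CPM), while the block fit called 0 and 7 had an unadjusted edgeR p under 0.05. Fos, a subunit of the AP-1 factor, was at 775 and 1881 against 2710.4 and 3384 CPM and was not called. Of 48 respiratory chain genes 5 were above and 6 below in both and the median was 0. Of 50 ribosomal protein genes 12 were above and 0 below, with a median of 0.18 that ranged from 0.05 to 0.33. Of 24 glycolysis genes 10 were above and 4 below, with a median of 0.06; Eno3, the muscle enolase, fell from 150.4 and 200.1 to 50.6 and 72.2 CPM.

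**Figure D5:**
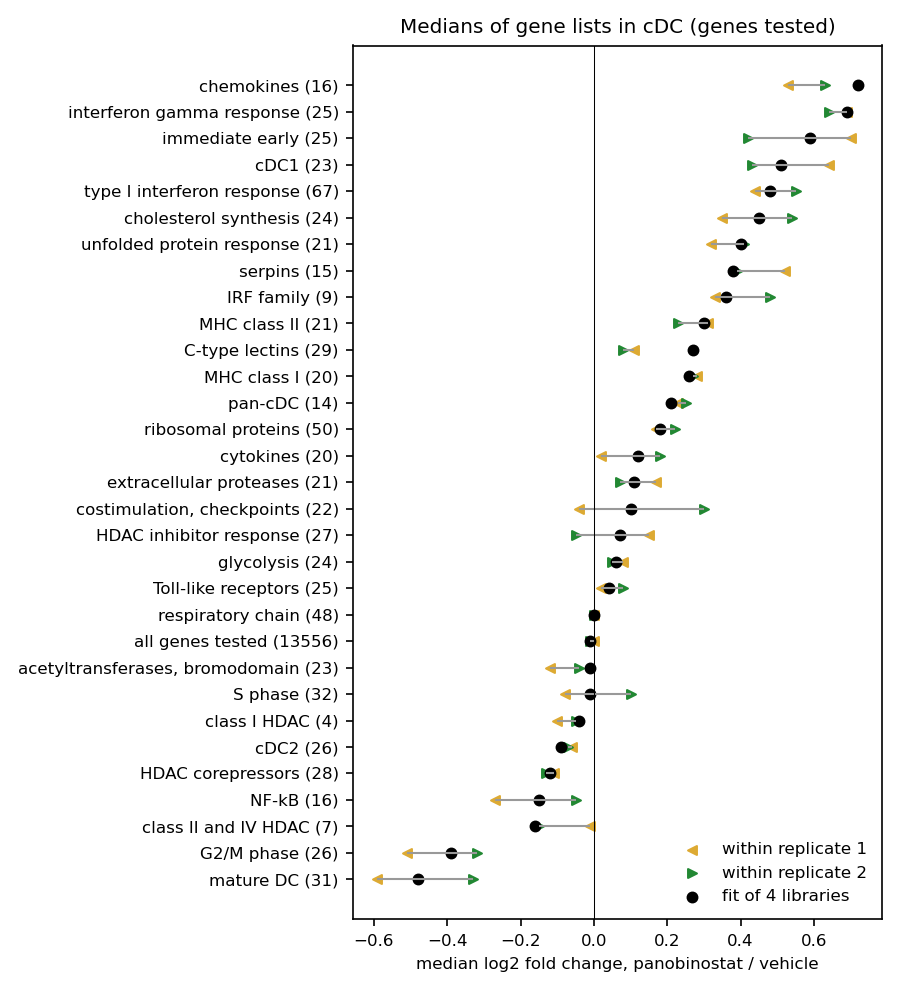
Median log2 fold change of 30 gene lists and of all genes tested, from the fit of 4 libraries (black) and within replicate 1 and replicate 2 (triangles), with the number of genes tested in brackets. The interferon gamma list has a median of 0.69 and the mature DC list one of -0.48, and within each replicate number these 2 medians keep their sign.

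Several genes with other functions fell. Crispld2, a secreted glycoprotein, was at 45.6 and 48.97 CPM under vehicle and 5.51 and 4.23 CPM under panobinostat (-3.28 ± 0.19, adjusted p = 0.245, and 0.0262 with the block). Its groups were far apart, with little spread within either. Papss2, which makes the sulfate donor of the cell, fell from 43.4 and 34.3 to 12.3 and 11.4 CPM, Mreg, a melanosome transport protein, from 61.7 and 68.3 to 22.4 and 25.04 CPM and Il9r, the interleukin 9 receptor, from 13.9 and 15.2 to 4.37 and 4.34 CPM. Tgfbi, an extracellular matrix protein, fell from 289 and 229 to 165 and 137 CPM. Fabp5, a fatty acid carrier, and Nr1h3, the oxysterol receptor LXR alpha, were at 50.01 and 23.1 against 16.1 and 7.69 CPM and 28.1 and 12.9 against 9.23 and 4.78 CPM, with library 1 of each treatment above library 2. Kdr, a receptor for vascular endothelial growth factor, fell from 52.1 and 15.01 to 10.3 and 3.57 CPM. It is on the list of stroma and endothelium markers, of which 6 were tested. Kdr was the 1 below in both panobinostat libraries, Cxcl12 and Vwf were the 2 above, and the median was 0.01. In the pDC libraries Kdr was at 160.4 and 255.5 against 45.7 and 117.6 CPM (scaled over the 8 libraries). The part of endothelial cells in the Kdr level was not tested. Pilra, an inhibitory receptor, fell from 28.8 and 10.7 to 8.63 and 2.47 CPM.

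Other genes rose. Tmsb10, an actin-sequestering peptide, went from 1482 and 1798 to 2579.8 and 3021 CPM and Zyx, a focal adhesion protein, from 337 and 225 to 593 and 458 CPM. Nrp1, a coreceptor for semaphorins and vascular growth factor, rose from 36.4 and 27.1 to 84.99 and 89.6 CPM, and B3gnt5, a glycosyltransferase of lactosylceramide, from 8.52 and 18.6 to 32.5 and 66.6 CPM. Clnk, an adaptor of immunoreceptor signalling, rose from 8.23 and 12.6 to 24.8 and 52.9 CPM, Klrb1f from 10.1 and 12.7 to 24.8 and 41.8 CPM and Cdh17, a cadherin, from 11.8 and 18.4 to 29.6 and 59.04 CPM. In these 7 genes both treated libraries stood above both controls. Timd4, a receptor for phosphatidylserine on macrophages, rose within each number, from 10.6 and 3.22 to 39.3 and 12.1 CPM. Of the 18 tested red pulp macrophage markers, Timd4 was the 1 above in both panobinostat libraries and Spic the 1 below, and the median was 0.12 (-0.88 to 0.28 with any 1 library left out). Cd163, another of them, was at 6.77 and 1.61 against 14.7 and 3.295 CPM, higher within each number but not called. The part of macrophages in the Timd4 level was not tested.

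Lymphocyte genes made up much of the decrease. Of 144 immunoglobulin genes tested, 112 had both panobinostat libraries below both vehicle libraries and 1 had them above, against 20.7% and 20.6% of all genes. Of all 13556 genes 49 (0.361%) fell with the block, and 22 of them were immunoglobulin genes. Several of the 22 were variable segments with few reads, such as Igkv4-79 at 1.46 and 8.05 against 0.0496 and 0.494 CPM. The part of B and plasma cells in these levels was not tested. Igkc, the kappa light chain constant region, fell from 223 and 771 to 45.00 and 102 CPM, and Ighg2b from 118 and 89.7 to 25.5 and 19 CPM. The B cell genes Cd79a (27.1 and 104 against 6.996 and 38.1 CPM), Cd79b and Blnk fell as well, as did the plasma cell gene Mzb1 (20.5 and 79.5 against 3.37 and 16.8 CPM). The other B cell genes were not uniform, since Ms4a1, which encodes CD20, was at 26.3 and 139 against 64.3 and 148 CPM and Cd22 at 105 and 155 against 115 and 128 CPM. The NK cell genes Ncr1 (0.292 and 6.58 against 1.49 and 43.6 CPM), Gzma (0.0974 and 6.63 against 1.59 and 51.1 CPM), Xcl1, Klra8 and Nkg7 rose with the block with overlapping groups and mainly in library 2 of each treatment; the median of the 16 NK genes went from -0.81 to 4.98 as libraries were left out. With immunoglobulin, B, plasma and NK cell genes set aside, 74 of the 106 calls were left, 52 higher and 22 lower, and 222 of the 266 DESeq2 calls, 132 higher and 90 lower.

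Few genes could be shown to respond differently in cDC and pDC. In a fit of all 8 libraries the difference between the panobinostat effects was tested for 14238 genes, and 1 (0.00702%) passed, with 1107 (7.77%) at an unadjusted p under 0.05. That gene was Plekho2, a pleckstrin homology domain protein, at 314.7 and 261.6 CPM (scaled over the 8 libraries) under vehicle and 361.9 and 340.8 CPM under panobinostat in cDC, and at 72.03 and 80.99 against 6.346 and 6.782 CPM in pDC. Its log2 fold change was 0.29 in cDC and -3.54 in pDC, a difference of 3.83 (adjusted p = 0.0455, and 0.173 with the replicate block, where 0 genes passed). The leading interferon genes of the cDC response did not pass this test. For Zbp1 the fold changes in this fit were 1.19 in cDC and 1.61 in pDC, a difference of -0.42 ± 0.57 (adjusted p = 0.915), and for Tgtp1 they were 1.44 and 1.30 (difference 0.14 ± 0.57). For Irf7 they were 0.90 and -0.39, a difference of 1.29 ± 0.47 (adjusted p = 0.568). Crispld2 was -3.26 in cDC and -0.68 in pDC (difference -2.58 ± 1.46, adjusted p = 0.762). In pDC it stood at 0.202 and 0.433 CPM under vehicle and 0.347 and 0 CPM under panobinostat. These pDC levels are too low for the responses of the cell types to be compared. One pDC panobinostat library, number 2, stood apart with 10745 genes detected, against 14927 to 19950 in the other 7, and without pDC panobinostat number 1 or number 2 the count of differing genes was 6457 or 279; without any 1 of the other 6 libraries it was 0.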

How the data were processed

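The deposited table holds raw read counts per Entrez gene ID for 8 libraries. Per the submitters' processing notes, the authors used bcl2fastq (2.17.1.14), FastQC (0.11.6), cutadapt (2.1), HISAT2 (2.1.0) with mm10, and featureCounts (Subread 2.0.0). Per the labels' protocols, libraries were made with a low-input kit. The annotation, strand setting and treatment of multiply aligned reads were not given in the sources used here, so near copies (Tgtp1 and Tgtp2, Apol, Serpina3, H2 and immunoglobulin genes) and antisense partners are uncertain. Symbols matched 25275 of 27179 IDs, and 0 columns were left without a sample.

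The 4 cDC libraries were fitted alone in R (4.3.3) with edgeR (4.0.16): filterByExpr (minimum count 10, total 15), TMM scaling, the quasi-likelihood test and Benjamini-Hochberg adjustment over 13556 genes at 0.05. The fit left 2 residual degrees of freedom (1 with the replicate block). CPM uses TMM library sizes. Totals were 19411880 to 20657429 counts per library, and p-values rest on 2 libraries per group. DESeq2 (1.42.0), limma-voom (limma 3.58.1), other scalings, filters, all 8 libraries, the block and left-out libraries were the 13 alternatives; the difference between cell types was fitted on 8 libraries. Deviations of same-numbered libraries from their group means correlated at 0.15 to 0.49 over all 6 pairs of groups (0.49 between the cDC groups), and libraries were taken as paired by number. The labels do not say what the numbers share.

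Promoter windows are RefSeq's (GRCm38.p6). The members and lists were chosen with earlier results of these data known. Genes are named by rule: among called genes with separate groups and a mean log2 CPM of at least 3, the 12 largest changes and the 6 highest levels per direction, up to 6 per list, and fixed genes. As the unblocked fit called 0 genes, the rule was applied to the fit with the block, a choice made after seeing this. Other named genes were chosen after their values were seen. Some genes are not reported here.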

Additional observations from a re-analysis of the deposited data

Results flagged for a closer look

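Plekho2 was singled out because its response to panobinostat differed between the cell types by the test of the difference itself, the only gene of 14238 to do so. The log2 difference, cDC minus pDC, was 3.83 (adjusted p = 0.0455, edgeR). With the replicate block the adjusted p was 0.173. The difference stayed between 3.71 and 3.99 when any 1 of the 8 libraries was left out, but the adjusted p was 0.429 to 0.75 without any 1 of the cDC or pDC vehicle or cDC panobinostat libraries, 0.000351 without pDC panobinostat number 1 and 0.0281 without number 2. In cDC alone both panobinostat libraries were above both vehicle libraries.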

How the results depend on the processing

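The number of genes called in cDC was 0 in edgeR's fit of the 4 libraries and also with RLE, upper quartile or library-size scaling, the stricter filter, limma-voom, all 8 libraries fitted together and any 1 cDC library left out (0 to 0). It was 1 without a filter, 266 with DESeq2 and 106 with the replicate block. The block fit could not be repeated with a library left out, since no residual degrees of freedom remain. The number of genes that differed between cDC and pDC was 1, was 0 with the replicate block, and ranged from 0 to 6457 with 1 library left out. It was 6457 without pDC panobinostat number 1, 279 without number 2 and 0 without any 1 of the other libraries. Where a lone library was left in a group, it was assumed to vary like the others. Library-size scaling moved the median of all genes to -0.129, against -0.015. Over 228 named genes and their alternatives, 2957 values in all, 102 changed sign, each within 2 standard errors of 0 and uncalled, and 0 called values reversed. With 2 libraries per group, differences of the size seen in most lists were not separable gene by gene. The cause of the differences between the tools was not tested.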

Other observations

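Apolipoprotein L genes formed a further group that followed panobinostat within each replicate number. The 8 tested members lie together on chromosome 15 (77388217 to 77719288), their median log2 fold change was 1.07, and 4 were called higher with the block (Apol7a, Apol7c, Apol10b and Gm8221). Apol10b was at 10.6 and 36.7 CPM with vehicle and 32.7 and 129 CPM with panobinostat, and Apol7a at 19.3 and 55.98 against 43.3 and 114 CPM. All 8 had overlapping groups, because the libraries numbered 2 were higher than those numbered 1, as for the cDC1 genes Cd8a and Xcr1. The Ifi200 genes of chromosome 1 (173521311 to 174031755) were more even between the numbers: 10 of 11 had both panobinostat libraries above both vehicle libraries, with a median of 0.77. Gvin1, a large interferon-induced GTPase, and its near copy Gm4070 rose with the block, from 75.3 and 102 to 140.2 and 205 CPM for Gvin1. These families were picked after their values were seen.

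DESeq2 called further genes outside the lists that missed the threshold with the block. Higher were Lpar1, a receptor for lysophosphatidic acid (6.38 and 5.16 against 19.3 and 27.6 CPM), Tnfsf8, the ligand of CD30 (5.26 and 3.46 against 14.1 and 13.2 CPM), Dusp6, a phosphatase of ERK (59.4 and 64.7 against 105 and 143 CPM), and Fgl2 (539 and 408 against 766 and 1040.3 CPM). Lower were Fcrl5, an Fc receptor-like protein (43.8 and 17.9 against 3.62 and 4.06 CPM), Ryr3, a calcium release channel (66.7 and 74.7 against 30.9 and 20.5 CPM), Rasgrp1, an activator of Ras (32.9 and 33.6 against 11.3 and 15.9 CPM), and Adora2a, an adenosine receptor (157 and 124 against 77.4 and 78.9 CPM). Their adjusted p in DESeq2 ran from 1.52e-07 for Fcrl5 to 0.00733 for Fgl2, and with the block from 0.0537 for Dusp6 to 0.138 for Fgl2. Fcrl5 is a B lineage gene, and summed B cell markers, mostly Ighm, were lower in the panobinostat libraries. The part of B cells in the Fcrl5 level was not tested.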
